A study of Mus musculus with 40 samples.

Results

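The 8 genes described here encode enzymes and regulators of hepatic carbohydrate storage and use. They were taken by symbol from the 32544 gene rows of a liver RNA-seq count table. Pklr, Pfkl and Pfkfb1 act in glycolysis and its control, Khk in fructose use, and Gys2, Pygl, Ppp1r3b and Ppp1r3c in the making and breakdown of glycogen. All 8 passed the filter on low counts and were tested among 12616 genes.

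The animals were germ-free male C57BL/6 mice at postnatal day 64, raised without a microbiota. Delta-valerobetaine (VB), a trimethylated compound that gut bacteria make, or vehicle was given for 6 weeks on either a Western or a control diet. The 4 groups were Western diet with VB, Western diet with vehicle, control diet with VB and control diet with vehicle, with 5 mice in each. Whole liver was frozen and its RNA sequenced, and 16315342 to 24566686 counts were deposited per mouse over 2 lanes. The time of day of collection, the feeding state and the sugar content of the diets are not stated in the labels.

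Liver glycogen is the body's rapid glucose reserve. Glycogen synthase adds glucose units in the fed state, and glycogen phosphorylase removes them between meals. Protein phosphatase 1 switches the synthase on and the phosphorylase off, and it is brought to the glycogen particle by targeting subunits such as those encoded by Ppp1r3b and Ppp1r3c. Glycolysis breaks glucose down to pyruvate, and in hepatocytes phosphofructokinase and pyruvate kinase are among its points of control. Fructose enters below phosphofructokinase after fructokinase has phosphorylated it.

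The genes lie on 8 different chromosomes (GRCm38, GENCODE annotation). Pklr spans chr3:89136142-89146784 on the plus strand and Pfkl chr10:77986947-78010083 on the minus strand. Pfkfb1 spans chrX:150588229-150643878 on the plus strand and Khk chr5:30921431-30931248 on the plus strand. Gys2 spans chr6:142422613-142473109 and Pygl chr12:70190811-70231488, both on the minus strand. Ppp1r3b spans chr8:35375739-35388139 on the plus strand and Ppp1r3c chr19:36731731-36736653 on the minus strand. Exons of Pklr overlap those of Hcn3 on the opposite strand by 711 bp, and Hcn3 had 474 counts over all mice against 39785 for Pklr. Exons of Pfkfb1 overlap those of Apex2 on the opposite strand by 123 bp, with 4004 counts for Apex2 against 17001 for Pfkfb1. The strand setting of the counting is not given, so reads of the shared stretches cannot be assigned to one gene.

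Promoter sequences were available from RefSeq (GRCm38.p6) for 6 of the 8 genes, with 10 start sites in all. Pklr is a textbook target of the glucose-sensing factor ChREBP, which is encoded by Mlxipl and binds paired E-boxes, and 3 windows are shown for the E-box they hold. Each gives the 250 bases before a start site, 5′ to 3′ on the gene's strand. Capitals mark the carbohydrate response element in Pklr (CACGNG and CNCGTG with 5 bases between) and the E-box CACGTG in Khk and Ppp1r3c.
Pklr, the downstream of its 2 start sites, chr3:89136373-89136622, plus strand: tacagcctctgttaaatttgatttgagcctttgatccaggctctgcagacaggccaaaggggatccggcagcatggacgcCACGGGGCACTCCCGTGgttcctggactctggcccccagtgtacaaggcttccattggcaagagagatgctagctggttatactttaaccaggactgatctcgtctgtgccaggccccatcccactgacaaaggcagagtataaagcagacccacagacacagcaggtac
Khk, chr5:30921309-30921558, plus strand: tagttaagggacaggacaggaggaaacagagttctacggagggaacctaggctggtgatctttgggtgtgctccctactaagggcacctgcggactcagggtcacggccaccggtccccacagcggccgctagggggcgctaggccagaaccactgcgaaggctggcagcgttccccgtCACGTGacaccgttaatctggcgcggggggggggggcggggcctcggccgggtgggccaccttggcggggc
Ppp1r3c, chr19:36736605-36736854, minus strand: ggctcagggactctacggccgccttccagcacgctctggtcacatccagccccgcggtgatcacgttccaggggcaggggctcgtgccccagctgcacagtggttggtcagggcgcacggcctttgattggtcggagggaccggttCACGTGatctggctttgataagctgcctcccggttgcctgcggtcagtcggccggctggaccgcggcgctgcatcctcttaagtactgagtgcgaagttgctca

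The Pklr element begins 170 bases before the start, the Khk E-box 71 bases before and the Ppp1r3c E-box 104 bases before. Both strands were searched. Over 32851 promoter windows of the same length, the paired pattern occurred in 13, or 0.0396%, and the single E-box in 6.02%. The windows of Pfkl, Pfkfb1 and Pygl held neither. The D-box TTATGNAA and the cyclic AMP response element TGACGTCA were in none of the 10 windows, and in 3.07% and 1.55% of all windows. At such rates 10 windows would usually hold none. Gys2 and Ppp1r3b had no window to search. A match describes letters in the window and was not tied to any binding measurement here.

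One library stood apart in quality and 1 in its labels. The fourth vehicle mouse on Western diet had 4.62% of counts in mitochondrial genes, while the other mice had between 1.99% and 3.33%. One lane file of the first VB mouse on Western diet is labelled vehicle in its treatment field and VB in its title, and it was kept by title. The names of the libraries differ in form between the diets, and no label says whether the diets were processed apart. Any such difference in handling and the diet cannot be told apart. All 7 hepatocyte markers were present in every group, with summed levels of 31268 to 52462 CPM (counts per 1e+06 counts of the library, scaled for composition). On Western diet the sums were 34667 to 44648 CPM in VB and 31268 to 52462 CPM in vehicle mice. On control diet they were 45360 to 50647 CPM in VB and 42575 to 47577 CPM in vehicle mice. Fewer cells of a type and less RNA per cell cannot be told apart in whole liver. The 5 skeletal muscle markers summed to at most 5.96 CPM and the 5 adipocyte markers to at most 51.4 CPM, each in a VB mouse on Western diet. The 4 pancreatic acinar markers summed to 34.9 to 42.4 CPM in VB and 16.1 to 24.6 CPM in vehicle mice on Western diet, and to 21.9 to 39.2 CPM in VB and 27.6 to 49.5 CPM in vehicle mice on control diet. Nearly all of that was Cela1, with Amy2a5 at 0.14 CPM at most and Prss2 and Cpa1 at 0 in at least 1 group each. The 4 cholangiocyte markers summed to 4.70 to 7.51 CPM in vehicle mice on Western diet, against 8.51 to 13.3 CPM on control diet. In VB mice the 4 stellate markers summed to 58.5 to 142 CPM on Western and 154 to 175 CPM on control diet. In vehicle mice the stellate sums were 126 to 169 CPM and 129 to 184 CPM. The 3 red blood cell markers reached 2712 CPM in the VB and 1422 CPM in the vehicle group on Western diet. On control diet they reached 801 CPM in the VB and 1265 CPM in the vehicle group. The 3 neutrophil markers summed to 0.65 to 1.15 CPM in vehicle mice on Western diet, against 0.10 to 0.21 CPM on control diet, where Ly6g was at 0. The part of these differences in the results below was not tested.

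On Western diet, VB and vehicle livers differed in Gys2, Ppp1r3b and Ppp1r3c, and neither the 4 genes of glycolysis and fructose use nor Pygl passed the test. Gys2, the liver glycogen synthase, was 1.63-fold lower with VB. The phosphatase targeting subunits Ppp1r3b and Ppp1r3c were 1.83-fold and 2.85-fold higher. These 3 of the 8 genes passed the test, 2 higher and 1 lower, where 7.19% of all genes tested did, 3.33% higher and 3.86% lower. Each group had 5 mice, and a gene was called at an adjusted p under 0.05 with edgeR's quasi-likelihood test over all genes. The median log2 change of the 8 genes was -0.02, as over all genes, and the median absolute change was 0.31, against 0.17 over all genes. The 8 genes were chosen with earlier results of these data known, so such shares and medians describe them and do not test the set. Major urinary protein genes took 15.8% to 25.2% of counts in VB mice and 9.53% to 12.7% in vehicle mice on Western diet, and with them left out of the library sizes the same 3 genes were called.

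Gys2 had 134.9, 92.4, 110.6, 128.7 and 121.7 CPM in VB mice on Western diet, against 183.5, 197.0, 185.6, 185.6 and 204.9 CPM in vehicle mice on that diet. All VB mice were below all vehicle mice. On control diet Gys2 had 146.1, 129.5, 121.4, 102.2 and 131.2 CPM in VB mice, against 74.9, 109.5, 116.0, 95.2 and 103.6 CPM in vehicle mice. These groups overlapped, and the 5 Western diet vehicle mice stood above all the other mice. The means were 117.7 ± 16.8 CPM with VB and 191.3 ± 9.27 CPM with vehicle on Western diet (SD, n = 5 each). On control diet they were 126.1 ± 16.1 CPM with VB and 99.8 ± 15.9 CPM with vehicle (SD, n = 5 each). On the log2 scale the VB change on Western diet was -0.70 (SE 0.12, adjusted p = 0.00088).

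Ppp1r3b encodes GL, the targeting subunit abundant in liver, which binds both glycogen and phosphorylase. Its levels were 184.8, 237.0, 229.3, 175.9 and 206.2 CPM in VB mice on Western diet, against 139.6, 111.2, 108.4, 91.6 and 113.8 CPM in vehicle mice. Here all VB mice were above all vehicle mice. On control diet it had 225.5, 272.8, 263.6, 227.6 and 198.2 CPM in VB mice, against 194.1, 264.0, 304.8, 261.8 and 299.0 CPM in vehicle mice. The Western diet vehicle group was again the one apart, this time as the lowest, with the other 3 groups overlapping each other. The log2 change with VB on Western diet was 0.87 (SE 0.13, adjusted p = 0.000407).

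Ppp1r3c encodes PTG (protein targeting to glycogen), another such subunit, which is found in many tissues. It had 43.3, 83.3, 35.9, 36.4 and 42.5 CPM in VB mice on Western diet, against 19.9, 17.1, 16.9, 18.5 and 12.4 CPM in vehicle mice. The second VB mouse was well above the others of its group, and the other 4 were still above every vehicle mouse. On control diet Ppp1r3c had 55.3, 38.7, 33.2, 49.1 and 27.0 CPM in VB mice, against 36.1, 41.6, 59.3, 45.7 and 53.9 CPM in vehicle mice. The log2 change with VB on Western diet was 1.51 (SE 0.23, adjusted p = 0.000665), and it was 1.22 at the lowest when any 1 of the 20 mice was left out.

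**Figure D1:**
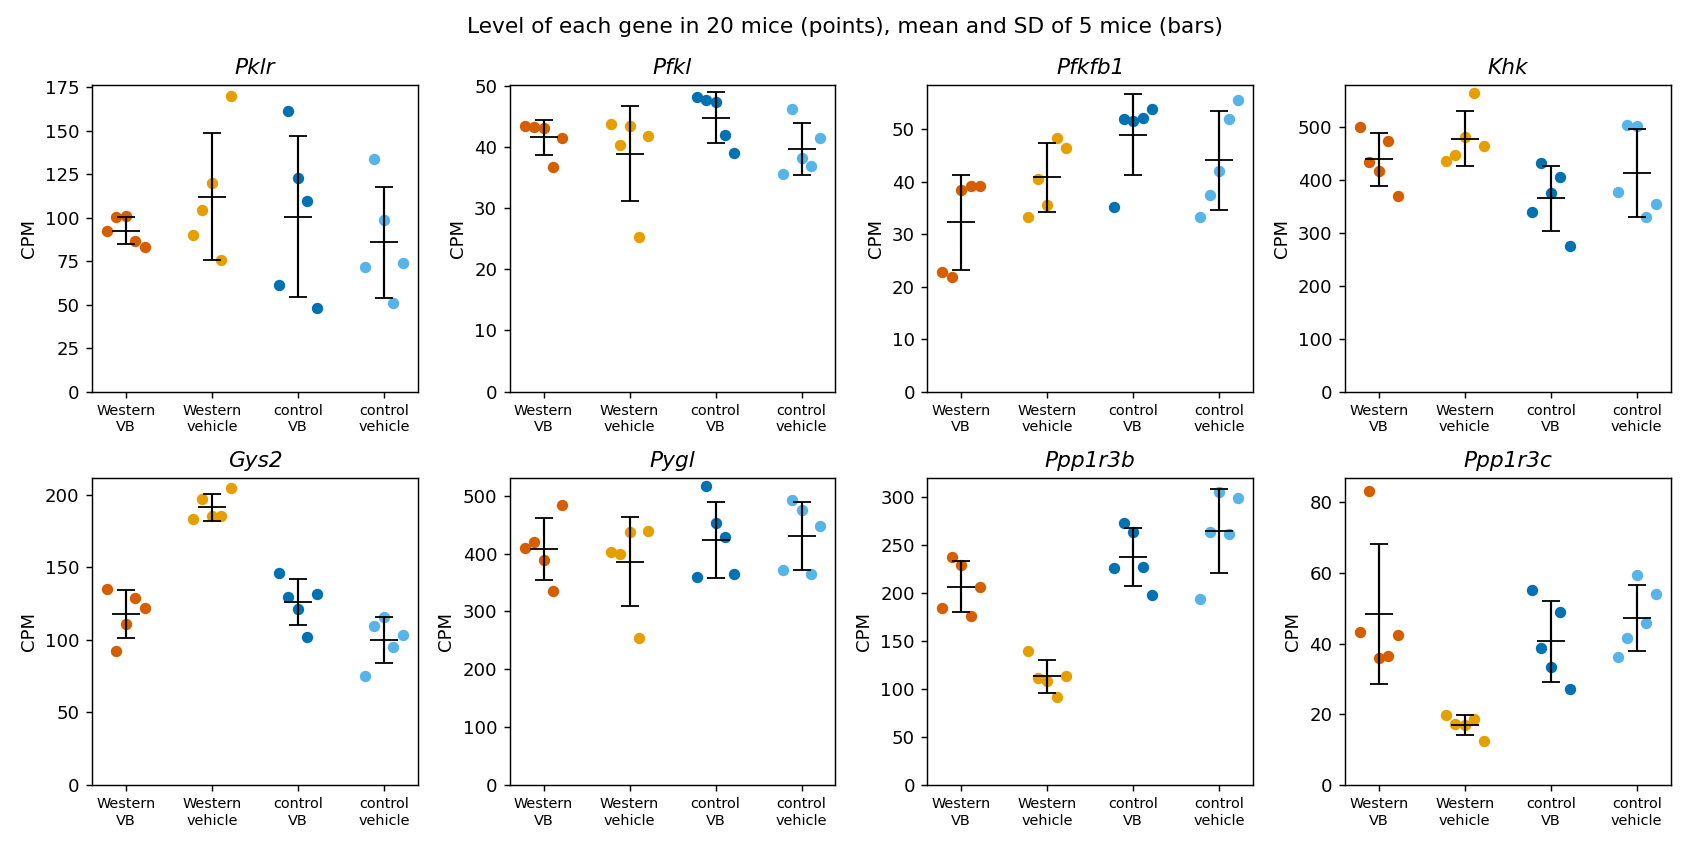
Level of each of the 8 genes in CPM (vertical axis, from 0) in 20 mice, with points for mice and bars for the mean and SD of 5 mice in the groups Western diet VB, Western diet vehicle, control diet VB and control diet vehicle. The Western diet vehicle mice are highest for Gys2, at 183.5 to 204.9 CPM, and lowest for Ppp1r3b and Ppp1r3c, at no more than 139.6 and 19.9 CPM.

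These 3 genes also had no overlap of the groups on Western diet, and the other 5 did. Over all genes tested, 7.19% were called and the groups did not overlap for 5.56%. Pklr, the liver and red cell pyruvate kinase of the last step of glycolysis, ranged over 83.3 to 100.8 CPM in VB mice and 75.8 to 170.3 CPM in vehicle mice. Its log2 change was -0.28 with a 95% interval of -0.90 to 0.35 (adjusted p = 0.683). Pfkl, the liver phosphofructokinase, ranged over 36.7 to 43.3 CPM with VB and 25.3 to 43.7 CPM with vehicle, a log2 change of 0.09 (interval -0.15 to 0.34). Pfkfb1, the bifunctional liver enzyme that makes and removes fructose 2,6-bisphosphate, had a log2 change of -0.34 (interval -0.71 to 0.04, adjusted p = 0.312). Khk, the fructokinase that traps fructose in the cell, was at 370.0 to 499.5 CPM with VB and 435.4 to 565.3 CPM with vehicle, and its log2 change was -0.12 (interval -0.40 to 0.15). Pygl, the liver glycogen phosphorylase, was at 335.9 to 483.8 CPM with VB and 253.4 to 439.3 CPM with vehicle, with a log2 change of 0.08 (interval -0.21 to 0.36). For Pfkl, Khk and Pygl the intervals lie within 0.40 of 0 on the log2 scale, and those of Pklr and Pfkfb1 leave room for larger falls.

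On control diet none of the 8 genes passed the test between VB and vehicle mice, where 0.151% of all genes did, 0.0555% higher and 0.0951% lower. One of them, Gys2, had an unadjusted p under 0.05, as did 1354 of the 12616 genes, and DESeq2 also called none of the 8. The log2 change of Gys2 was 0.34 (SE 0.12, adjusted p = 0.268), of the opposite sign to that on Western diet. Ppp1r3b had -0.16 (interval -0.42 to 0.11) and Ppp1r3c had -0.22 (interval -0.68 to 0.24). The other 5 genes lay between -0.18 for Khk and 0.23 for Pklr.

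The VB effects on the 2 diets were compared by the interaction term, Western minus control diet. For Gys2 the difference was -1.04 on the log2 scale (SE 0.16, adjusted p = 0.000527), for Ppp1r3b 1.03 (SE 0.18, adjusted p = 0.00122) and for Ppp1r3c 1.73 (SE 0.32, adjusted p = 0.00236). These 3 of the 8 genes were called, 2 positive and 1 negative. Of all genes 7.64% were called, 3.63% positive and 4.01% negative. The remaining 5 differences had intervals that included 0, the widest being that of Pklr at -1.39 to 0.38. The median absolute difference of the 8 genes was 0.50, and it was 0.25 over all genes, which given the choice of the genes is a description only.

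**Figure D2:**
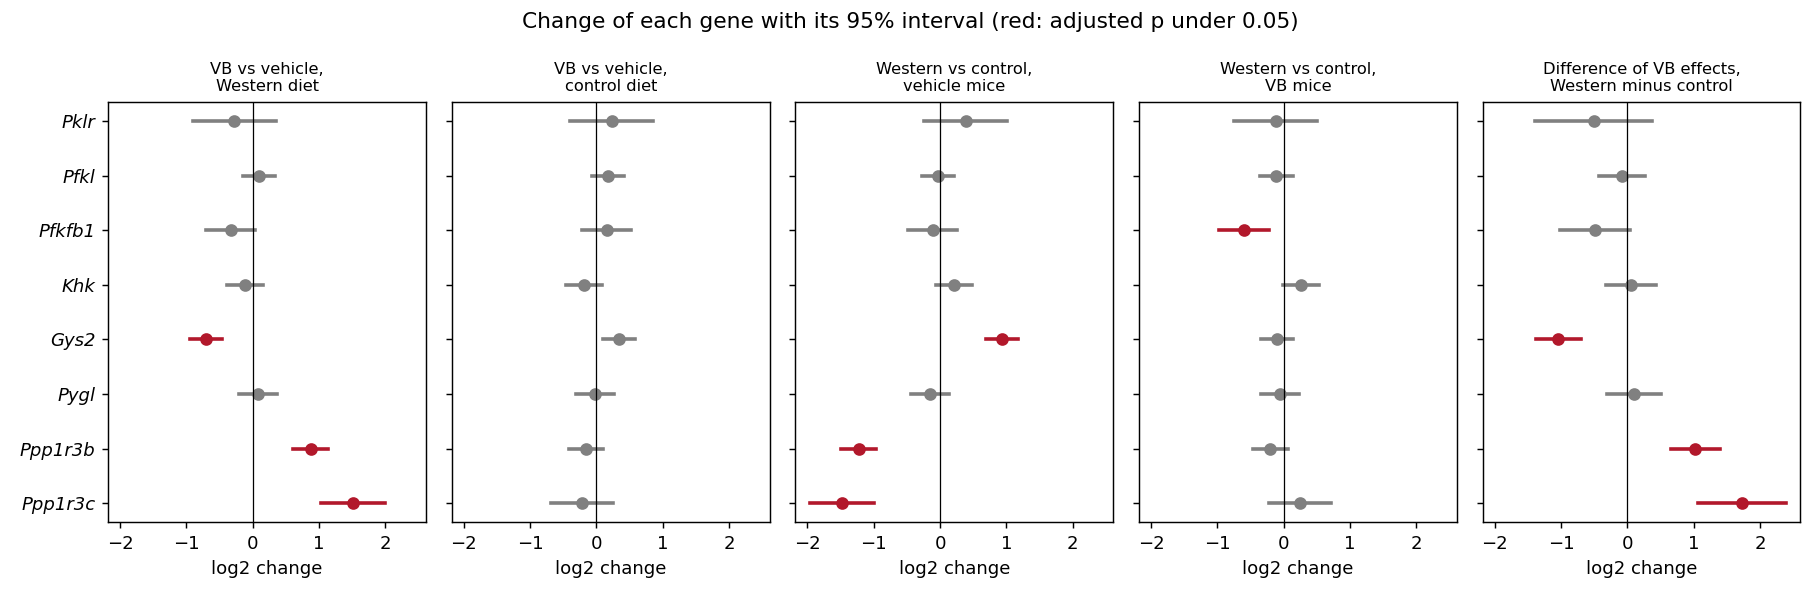
Log2 change of each gene (horizontal axis) with its 95% interval in the 4 pairwise comparisons and in the difference of the VB effects, red where the adjusted p is under 0.05. Gys2 lies at -0.70 and Ppp1r3c at 1.51 for VB on Western diet, while no gene is red for VB on control diet.

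The diet comparison in vehicle mice shares the Western diet vehicle mice with the VB comparison on that diet, so the 2 sets of values are not independent. Gys2 was 1.92-fold higher on Western than on control diet in vehicle mice, a log2 change of 0.94 (SE 0.12, adjusted p = 5.20e-06). Ppp1r3b was 2.34-fold lower, at -1.23 (SE 0.13, adjusted p = 6.01e-07), and Ppp1r3c 2.79-fold lower, at -1.48 (SE 0.23, adjusted p = 0.000125). The groups did not overlap for these 3 genes, nor for 12.2% of all genes tested. Of the 8 genes, 1 rose and 2 fell, where 16.5% of all genes tested were called in this comparison, 8.92% higher and 7.59% lower. Pklr had 0.39 (interval -0.24 to 1.01), Khk 0.21 (interval -0.06 to 0.48) and Pygl -0.16 (interval -0.44 to 0.13), and none of these passed the test.

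In VB mice 1 of the 8 genes, Pfkfb1, was called between the diets, as lower. Of all genes 6.44% were called, 3.23% higher and 3.22% lower. It had 22.8, 21.8, 38.5, 39.1 and 39.1 CPM on Western diet, against 35.2, 52.0, 51.5, 52.1 and 53.8 CPM on control diet. The groups overlapped, since the first control diet mouse lay below 3 of the Western diet mice. The log2 change was -0.60 (SE 0.18, adjusted p = 0.0483), and the call was kept in 7 of the 20 fits that left out 1 mouse. Gys2 had -0.10 (interval -0.34 to 0.14), Ppp1r3b -0.20 (interval -0.46 to 0.06) and Ppp1r3c 0.25 (interval -0.22 to 0.71) in the VB mice, and Khk had 0.27 (interval -0.01 to 0.54).

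The calls on the 3 genes were also made without the mice that stood apart. Without the first VB mouse on Western diet, the VB change there was -0.75 for Gys2 (adjusted p = 0.00117), 0.91 for Ppp1r3b (adjusted p = 0.00055) and 1.54 for Ppp1r3c (adjusted p = 0.00118). Without the fourth vehicle mouse it was -0.71, 0.81 and 1.54 for the same genes, all called. The Pfkfb1 difference between diets in VB mice was -0.50 without that first mouse and did not pass (adjusted p = 0.118). Adipocyte markers were highest in the second VB mouse on Western diet, at 51.4 CPM in sum, which was also the highest for Ppp1r3c. Without it Ppp1r3c still had a log2 change of 1.22 with VB.

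Genes of the circadian clock and of fasting also moved between the groups. Of 21 clock genes, 8 were called for VB on Western diet, 4 higher and 4 lower, or 38.1%, against 7.19% of all genes. For diet in vehicle mice 17 were called, 11 higher and 6 lower, or 81%, against 16.5% of all genes. For VB on control diet 3 clock genes were called, or 14.3%, against 0.151% of all genes. Of 14 fasting response genes, 5 were called for VB on Western diet (35.7%) and 11 for diet in vehicle mice (78.6%). For VB on control diet 0 were called. The first principal component of the clock genes, scaled to an SD of 1 over the mice and signed to be higher where Dbp is high, averaged 0.23 ± 0.42 in VB mice and 1.29 ± 0.13 in vehicle mice on Western diet, and -0.22 ± 0.26 in VB mice and -1.30 ± 0.39 in vehicle mice on control diet (SD, n = 5 each). With that score as a covariate, an adjustment that left 2 genes called in all for VB on Western diet, the VB change there was -0.29 for Gys2 (SE 0.16, adjusted p = 0.718). In the same fit it was 0.97 for Ppp1r3b (SE 0.22, adjusted p = 0.125) and 1.22 for Ppp1r3c (SE 0.38, adjusted p = 0.315). For diet in vehicle mice the adjusted values were -0.06 for Gys2, -1.47 for Ppp1r3b and -0.83 for Ppp1r3c, none called.

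**Figure D3:**
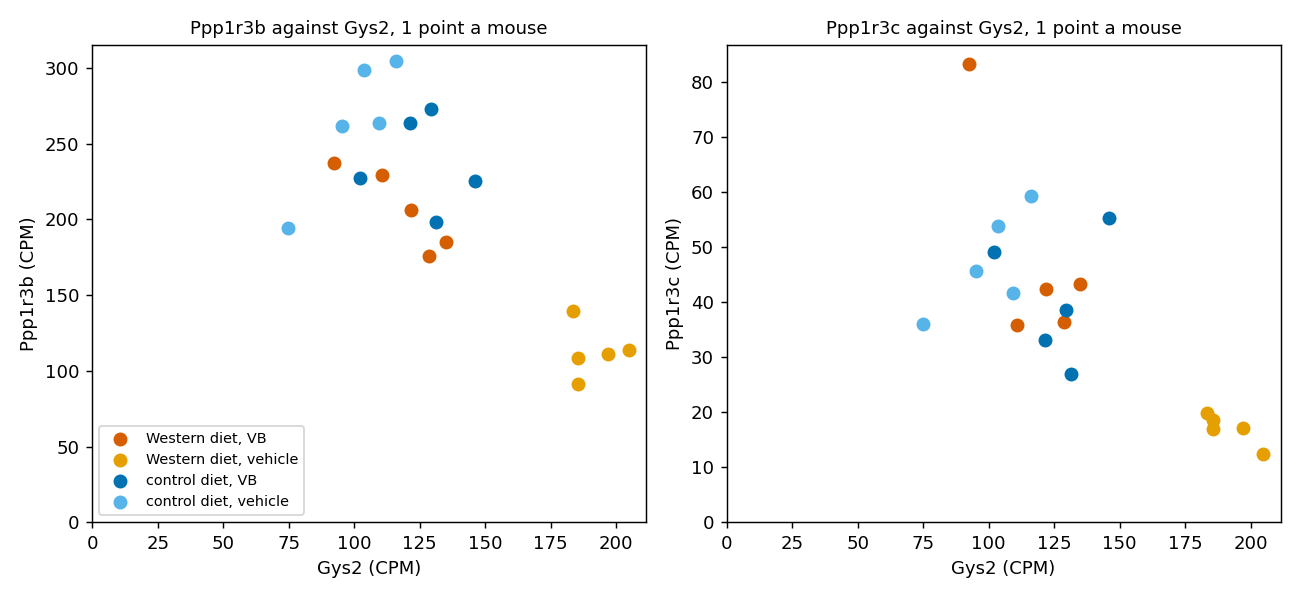
Ppp1r3b (left) and Ppp1r3c (right), in CPM, against Gys2, in CPM, with 1 point for each of 20 mice, coloured by diet and treatment. The 5 Western diet vehicle mice sit together at the lower right of both plots, at Gys2 levels of 183.5 CPM or more.

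The balance of synthase and targeting transcripts separated the Western diet vehicle mice from the rest. These mice were already above all others for Gys2 and below all others for Ppp1r3b. The ratio of those 2 genes therefore restates the levels above and is no further result. The log2 ratio of Gys2 to Ppp1r3b CPM was -1.36 to -0.45 in VB mice and 0.39 to 1.02 in vehicle mice on Western diet. On control diet it was -1.16 to -0.59 in VB mice and -1.53 to -1.27 in vehicle mice. The log2 ratio of Gys2 to Pygl, synthase to phosphorylase, was -2.18 to -1.38 in VB mice and -1.24 to -0.45 in vehicle mice on Western diet. On control diet it was -2.07 to -1.30 in VB mice and -2.31 to -1.94 in vehicle mice. These ratios are not corrected for gene length, so only their shift between mice can be read, and they were not tested.

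Group membership held 85.9% of the variance of log2 CPM over the 20 mice for Ppp1r3b, 80.6% for Gys2 and 76.2% for Ppp1r3c. The share was 39.9% for Pfkfb1, 35.2% for Khk, lower for Pfkl, 9.24% for Pklr and 8.57% for Pygl, and its median over all genes was 26.6%. Pklr was thus among the genes that varied mostly between mice of a group, with 47.8 to 161.5 CPM in the VB mice on control diet alone. Taken as deviations from the group means over the 20 mice, Pygl went with Pfkl (Pearson r = 0.80, Spearman rho = 0.66) and with Pklr (r = 0.73, rho = 0.70). The fourth vehicle mouse on Western diet, with 4.62% mitochondrial counts, was the lowest of its group for all of these. It had 253.4 CPM for Pygl, 25.3 CPM for Pfkl and 75.8 CPM for Pklr. These correlations were not computed without it, so its part in them is not known. Khk went with Pklr (r = 0.65, rho = 0.70). Within groups Ppp1r3b and Gys2 had r = 0.12, and Ppp1r3c and Gys2 had r = -0.16. These values describe mice that share libraries and scaling between the genes, and carry no test.

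The genes, apart from Khk, were set beside related genes on a scale of CPM per kilobase of exon. Over single mice Gys2 was at 34.8 to 50.8 in VB and 69.05 to 77.1 in vehicle mice on Western diet. On control diet it was at 38.5 to 54.99 in VB and 28.2 to 43.7 in vehicle mice. Group means of Gys1, the muscle synthase, were between 0.21 and 0.35. Pygl was at 56.1 to 62.5 over the group means, and the brain and muscle phosphorylases Pygb and Pygm were below 0.59. Pklr was at 26.5 to 34.6, above Pkm, the other pyruvate kinase gene, at 2.51 to 2.78. Pfkl was at 5.83 to 6.71, with the muscle form Pfkm at 2.21 to 2.54. Group means of Pfkfb1 were 8.03 to 12.2, with Pfkfb2 at 0.37 to 0.71 and Pfkfb3 at 1.35 to 2.07. Khk was the most abundant of the 8 on this scale, at 203 to 266. Ppp1r3b was at 33.2 in VB and 18.2 in vehicle mice on Western diet, and Ppp1r3c was at 17.7 and 6.22 in those groups. Another targeting subunit gene, Ppp1r3g, had group means of 0.71 to 2.61, and its highest mice reached 9.59 in the VB group on Western diet, 5.67 in the VB group on control diet and 9.12 in the vehicle group on control diet.

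The other genes of glucose and glycogen metabolism were read from lists of 109 genes, of which 103 were tested. Changes are given on the log2 scale. Apart from the 8 genes, 7 of 95 were called for VB on Western diet, or 7.37%, close to the 7.19% of all genes. Of 22 glycogen enzymes 3 were called there, all lower. Among them, besides Gys2, was Ugp2, which makes the UDP-glucose that synthase uses, at -0.33 (SE 0.083, adjusted p = 0.0176). Of 7 phosphatase targeting and catalytic genes 2 were called, Ppp1r3b and Ppp1r3c. None of 21 glycolysis genes and none of 8 fructose and polyol genes was called. Of 4 genes for fructose 2,6-bisphosphate, Pfkfb2, a second bifunctional enzyme, was higher by 0.75 (SE 0.16, adjusted p = 0.00653). Its level was low, at means of 4.57 CPM in VB and 2.70 CPM in vehicle mice on Western diet. Of 9 gluconeogenesis genes, Pck1, which makes phosphoenolpyruvate, was higher by 0.73 (SE 0.17, adjusted p = 0.0118).

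Of 25 genes for glucose sensing and uptake, 3 were called for VB on Western diet, or 12%, against 7.19% of all genes. Mlxipl, which encodes ChREBP, was higher by 0.58 (SE 0.13, adjusted p = 0.00723). Txnip, a glucose-induced inhibitor of glucose uptake, had 32.6 ± 12.2 CPM in VB mice and 89.1 ± 27.1 CPM in vehicle mice (SD, n = 5 each), and its log2 change was -1.45 (SE 0.28, adjusted p = 0.00374). Pdha1, a subunit of pyruvate dehydrogenase, was lower by a log2 change of -0.32. Pklr, a textbook ChREBP target whose promoter element is shown above, did not pass. Gckr and the glucose transporter Slc2a2 did not pass in any of the 5 comparisons.

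For VB on control diet none of the 103 genes was called with edgeR, where 0.151% of all genes were, and DESeq2 called 2. The smallest adjusted p among the genes named here was that of Ugp2, with a log2 change of 0.34 (SE 0.083, adjusted p = 0.0925). Ugp2 thus had the sign of Gys2 on both diets, negative on Western and positive on control diet. The difference of the VB effects was called for Ugp2, at -0.66 (SE 0.12, adjusted p = 0.00129).

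**Figure D4:**
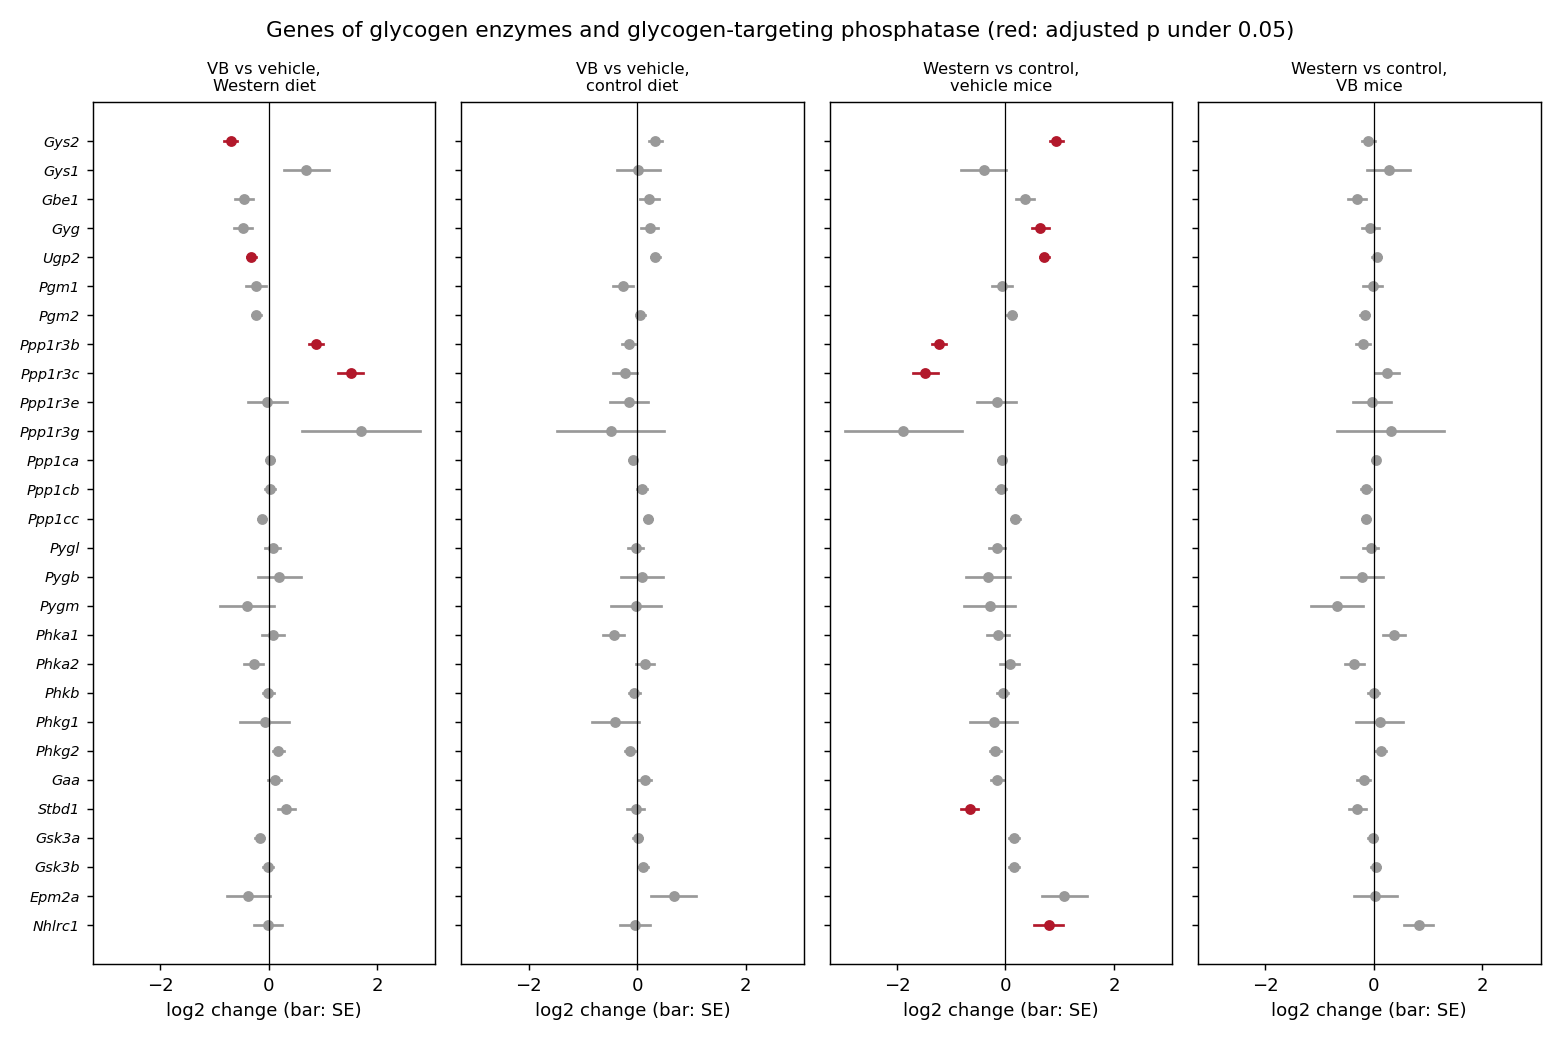
Log2 change (horizontal axis, bars show the SE) of genes for glycogen enzymes and glycogen-targeting phosphatase in the 4 pairwise comparisons, red where the adjusted p is under 0.05. Gys2 and Ugp2 are red and below 0 for VB on Western diet, at -0.70 and -0.33, and red and above 0 for diet in vehicle mice, at 0.94 and 0.71.

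Western diet in vehicle mice moved 26 of the 95 other genes, or 27.4%, 17 of them higher and 9 lower, where 16.5% of all genes were called. Of the 22 glycogen enzymes 4 were higher and 1 lower. Besides Gys2, Ugp2 was higher by 0.71 (SE 0.083, adjusted p = 2.65e-06), and Stbd1, which tethers glycogen for its breakdown in lysosomes, was lower at -0.66 (SE 0.16, adjusted p = 0.00546). Gyg, the primer protein of glycogen, at 0.64, and Nhlrc1, the ubiquitin ligase malin, at 0.80, complete that count and were named after their values were seen. Both were low, with means in vehicle mice of 5.02 CPM on Western and 3.21 CPM on control diet for Gyg. For Nhlrc1 these were 2.18 CPM and 1.25 CPM. Of the 8 fructose and polyol genes 3 were higher and none lower: the fructose transporter Slc2a5 at 1.63 (SE 0.21, adjusted p = 7.51e-06), triokinase Tkfc at 0.44 (SE 0.14, adjusted p = 0.0298) and sorbitol dehydrogenase Sord at 0.33 (SE 0.079, adjusted p = 0.0059). Slc2a5 was a low transcript, at means of 8.73 CPM on Western and 2.82 CPM on control diet in vehicle mice. Khk, which acts between Slc2a5 and Tkfc on fructose, did not pass.

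Of 21 glycolysis genes in vehicle mice 3 were higher on Western diet and 1 lower, or 19% called, near the 16.5% of all genes. Aldoc, the brain-type aldolase, was the lower one, with 3.14 ± 0.37 CPM on Western and 19.9 ± 2.59 CPM on control diet (SD, n = 5 each), a log2 change of -2.66 (SE 0.16, adjusted p = 1.10e-10). Ldha, Gapdh and Pgam1 were higher by 0.36, 0.49 and 0.29. Of 9 gluconeogenesis genes 4 were higher, G6pc3, Fbp1, Pcx and Mpc1, and 2 lower, or 66.7% called. The lower ones were Pck1 at -0.63 (SE 0.17, adjusted p = 0.0139) and G6pc, the liver glucose-6-phosphatase that releases free glucose, at -1.80 (SE 0.43, adjusted p = 0.00754). G6pc had 154 ± 40.3 CPM on Western and 537 ± 397 CPM on control diet in vehicle mice (SD, n = 5 each). The control diet group reached 1220 CPM, and the medians were 128 CPM and 348 CPM. With VB on Western diet the log2 change of G6pc was 1.28 (SE 0.43, adjusted p = 0.0807).

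In VB mice, diet moved 8 of the 95 other genes, or 8.42%, near the 6.44% of all genes. Aldoc was lower again, at -1.99 (SE 0.16, adjusted p = 1.40e-08), and Slc2a5 was higher, at 1.03 (SE 0.20, adjusted p = 0.00244). Mlxipl was higher by 0.59 (SE 0.13, adjusted p = 0.00703).

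Among all tested genes, those whose log2 CPM went most closely with a called gene over the 20 mice were listed as a description. For Gys2 they were Por, the reductase that supplies electrons to cytochrome P450 enzymes, and the vitamin transporter Slc5a6 (r = 0.91 each). Por averaged 401 CPM in VB and 777 CPM in vehicle mice on Western diet, and 472 CPM in VB and 279 CPM in vehicle mice on control diet. For Ppp1r3b they were the manganese exporter Slc30a10 (r = 0.92) and Fmn1 (r = 0.91), for Ppp1r3c Smagp (r = 0.91) and Larp1 (r = 0.89), and for Pfkfb1 Zfp213 (r = 0.86) and Pank3 (r = 0.82). Within groups the r was lower for Gys2, at 0.59 with Por, and for Ppp1r3b, at 0.50 with Slc30a10, and closer to that over all mice for Pfkfb1, at 0.82 with Zfp213.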

How the data were processed

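The deposited values are raw read counts by gene symbol, with 2 lane files for each of 20 mice (40 in all). Libraries were made from liver total RNA with a TruSeq kit, per the labels' protocols. Per the submitters' processing notes, reads were placed on GRCm38. No aligner, counting tool, gene annotation or strand setting is named in the labels. The 2 lanes of each mouse differed by a chi-square of 1.33 to 1.49 per degree of freedom over genes with at least 20 reads, against at least 17.7 between mice, and were summed and counted as 1 sample. Groups come from the titles. Whether mice shared cages or litters is not given, so p-values measure the spread between these mice.

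Genes were filtered with filterByExpr (minimum count 10, minimum total 15), which kept 12616 genes and 99.95% of counts. Counts were scaled by TMM and the 4 groups fitted together with the robust quasi-likelihood test of edgeR 4.0.16 in R 4.3.3. P-values were adjusted by Benjamini-Hochberg over all genes tested, with calls at 0.05. A prior count of 2 went into log2 CPM, and intervals are 95% intervals of the fit. The fit was tested on simulated data. Alternatives were other scalings, no filter, DESeq2 1.42.0, limma-voom 3.58.1, a replicate block, single lanes, fits of the compared groups, a clock score covariate and leaving out each mouse. The 8 genes, the gene lists and the tests were chosen with earlier results of these data known. Named genes are the 8, a fixed set (including Gckr, Mlxipl, Slc2a2, G6pc, Pck1 and Tkfc) and up to 3 called genes of each list and comparison with the smallest p. Some genes under this rule are not reported here.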

Additional observations from a re-analysis of the deposited data

Results flagged for a closer look

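Within-group outliers were looked for in 32 sets of 5 mice, and 5 were found at a gap over 0.71 of the group's range (chance gives about 1 in 20). The fourth vehicle mouse on Western diet was low for Pfkl, at 25.3 CPM with a gap of 0.817, and for Pygl, at 253.4 CPM with a gap of 0.785. This is the mouse with 4.62% mitochondrial counts, and the part of that share in its values was not tested. The fourth VB mouse on Western diet was low for Pfkl, at 36.7 CPM (gap 0.713), and the first VB mouse on control diet was low for Pfkfb1, at 35.2 CPM (gap 0.878). The second VB mouse on Western diet was high for Ppp1r3c, at 83.3 CPM (gap 0.843).

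The effect of VB differed between the diets, Western minus control, for 12 of the 103 glucose-list genes tested. Without the 8 genes of the report this was 9 of 95, or 9.47%, against 7.64% of all genes. Those given here include, among glycogen genes, Gys2 (-1.04), Ugp2 (-0.66), Ppp1r3b (1.03) and Ppp1r3c (1.73) on the log2 scale. Glucose sensing and insulin signalling genes among them were Mlxipl (0.89), Txnip (-1.66) and Irs2 (0.97). Genes around pyruvate included Pdha1 (-0.56), Pdk2 (-0.52) and Pck2 (-1.19), and the aldose reductase gene Akr1b3 had 0.66. Pck2 was a low transcript, with group means of 1.02 to 1.75 CPM. Each of the genes listed passed the interaction test at an adjusted p under 0.05.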

How the results depend on the processing

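The calls on Gys2, Ppp1r3b and Ppp1r3c held without each of the 20 mice and under every alternative run except the clock score covariate. Of the 8 genes, 3 to 3 were called without 1 mouse for VB on Western diet, for diet in vehicle mice and for the difference of VB effects, 0 to 0 for VB on control diet and 0 to 1 for diet in VB mice. That last call, on Pfkfb1, also went to 0 with no filter, with lane 1 alone and in the fit of the compared groups. When a clock score entered the fit, 0 of the 8 were called in each of the comparisons, and over all genes 2, 0, 28, 615 and 1 were (VB on Western diet, VB on control diet, diet in vehicle mice, diet in VB mice, difference). The score differs between the groups, so a loss of calls there cannot be told apart from a loss of the group contrast.

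Sign changes with that covariate were, on the log2 scale, Gys2 at -0.061 and Khk at -0.17 and Pklr at -0.0010 for diet in vehicle mice. They were Khk at 0.029 for VB on Western diet, Gys2 at -0.082, Pygl at 0.0090 and Ppp1r3c at 0.051 for VB on control diet, and Pfkl at 0.040 for the difference. With limma-voom Pklr had 0.013 for diet in VB mice. Of these only Gys2 for diet in vehicle mice was called in the reported fit. Leaving out 1 mouse turned the sign of values that were not called. These were, by range, Pfkl -0.022 to 0.14 and Pygl -0.037 to 0.14 for VB on Western diet, Pklr -0.0066 to 0.45 and Pygl -0.10 to 0.033 for VB on control diet, and Pfkl -0.073 to 0.080 for diet in vehicle mice. For diet in VB mice they were Pklr -0.30 to 0.12, Pygl -0.13 to 0.023 and Ppp1r3c -0.054 to 0.38, and for the difference Khk -0.029 to 0.13 and Pygl -0.018 to 0.18. The cause was not tested.

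DESeq2 called 1249, 164, 2383, 1201 and 1300 genes in the order of comparisons above, against 907, 19, 2083, 813 and 964 in the reported fit. Same-numbered mice of 2 groups correlated at -0.07 to 0.38 in their deviations from the group means. Differently numbered mice were not compared, so these values cannot decide whether the numbers pair the mice. A replicate block added Pfkfb1 for VB on Western diet (-0.36, adjusted p = 0.0488) and for the difference (-0.53, adjusted p = 0.0387), which makes 4 called genes in each.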
